A study of Mus musculus with 6 samples.

Results

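The Ifit family, the interferon-induced proteins with tetratricopeptide repeats, was represented by 6 genes among the 54532 rows of the deposited table: Ifit1, Ifit2, Ifit3, Ifit3b, Ifit1bl1 and Ifit1bl2. They were chosen by symbol, as every gene called Ifit followed by a digit, and the family was selected on its difference between KD and NC, which was already known from these libraries. The KD and NC values of its members are therefore a description and carry no test. RNA had been sequenced from cultures labelled as lung fibroblasts taken straight from mice, in 3 libraries titled NC and 3 titled calumenin KD. The sample descriptions call the same libraries WT and KO, NC is not spelled out, and strain, age and the agent used against calumenin are not given. No treatment with interferon, virus or nucleic acid is stated for either group. Nothing states that replicates were separate cultures or animals, so the spread and the p-values cover these samples only and may be technical.

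Reads assigned to genes, recovered from the FPKM values (fragments scaled to gene length and sequencing depth), summed to 15907164 to 18312888 per library. Calu, the calumenin gene, had 219.9 to 226.6 FPKM in NC and 12.59 to 14.63 FPKM in KD. Of 10 fibroblast markers 7 reached a mean of 1 FPKM, with a summed level of 1500 to 1520 FPKM in NC and 1750 to 1790 FPKM in KD, but Lum was at 0 in all 6 libraries and Dcn and Thy1 were below 0.2 FPKM. Leukocyte markers summed to 4.76 to 5.6 FPKM in NC and 3.19 to 4.98 FPKM in KD, with Adgre1 and Siglech at 0. Epithelial and endothelial markers summed to less than 1 FPKM in every library. The mesothelial list stood at 13.7 to 14.8 FPKM in NC and 10.4 to 14.2 FPKM in KD, nearly all of it Msln. Smooth muscle and pericyte markers summed to 48.1 to 52.9 and 40.6 to 54.9 FPKM, nearly all of it Cspg4.

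IFIT proteins are cytosolic RNA-binding effectors of the antiviral response, built from repeated helical motifs and typically induced when interferon or viral RNA has been sensed. Type I interferon acts through the receptor chains IFNAR1 and IFNAR2 and the kinases JAK1 and TYK2 to bring STAT2 and IRF9 into a complex that binds the interferon-stimulated response element (ISRE), and IRF3 can switch on Ifit genes directly. IFIT1 grips mRNA whose cap lacks ribose methylation and blocks its translation, human IFIT3 binds and stabilises IFIT1, and human IFIT2 forms complexes with both.

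The 6 genes lay side by side on chromosome 19 (mm10), over 99.32 kb from 34550694 to 34650009. In order along the chromosome these were Ifit2 (34550694 to 34576419, plus strand), Ifit3 (34583531 to 34588731, plus), Ifit1bl1 (34592888 to 34601968, minus), Ifit3b (34607970 to 34613401, plus), Ifit1bl2 (34617049 to 34640743, minus) and Ifit1 (34640871 to 34650009, plus). In the same order their Ensembl identifiers in the table were ENSMUSG00000045932, ENSMUSG00000074896, ENSMUSG00000079339, ENSMUSG00000062488, ENSMUSG00000067297 and ENSMUSG00000034459. All were annotated as protein-coding. In GENCODE M21 each had 2 coding exons, of which the larger held 97.71% to 99.65% of the coding bases. The coding sequence ran to 470 codons in Ifit2 and Ifit1bl1, 466 in Ifit1bl2, 463 in Ifit1 and 403 in Ifit3 and Ifit3b, stop codons not counted.

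Sequence upstream of the annotated starts was taken from RefSeq (GRCm38.p6), where all 6 genes had an entry, with 9 starts between them. Each was searched in a window of 300 bases, from 250 before the start to 50 after it, for the ISRE core GAAANNGAAA on both strands, which reads TTTCNNTTTC on the other strand. At least 1 match stood in 3.44% of all 32851 promoter windows and at least 2 in 0.225%. Of the 9 Ifit windows 6 had a match and 4 had a pair. Counted by gene, 5 of 6 had a match at a listed start, and 4 had a pair. The stretches below are shown because they hold every match found beside the upstream-most start of each gene, or, for Ifit2, the 100 bases before its start. Capitals mark the matches, and each line runs in the direction of transcription.
Ifit3: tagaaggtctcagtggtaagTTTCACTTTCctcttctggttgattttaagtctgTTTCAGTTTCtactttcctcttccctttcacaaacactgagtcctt
Ifit3b: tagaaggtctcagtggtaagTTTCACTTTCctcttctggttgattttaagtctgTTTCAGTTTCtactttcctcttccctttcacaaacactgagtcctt
Ifit1: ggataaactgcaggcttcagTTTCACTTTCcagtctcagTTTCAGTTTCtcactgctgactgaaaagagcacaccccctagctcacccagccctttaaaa
Ifit1bl2: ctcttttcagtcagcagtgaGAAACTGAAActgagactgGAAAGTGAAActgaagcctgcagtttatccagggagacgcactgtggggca
Ifit1bl1: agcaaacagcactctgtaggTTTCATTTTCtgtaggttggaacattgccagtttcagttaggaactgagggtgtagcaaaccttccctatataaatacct
Ifit2: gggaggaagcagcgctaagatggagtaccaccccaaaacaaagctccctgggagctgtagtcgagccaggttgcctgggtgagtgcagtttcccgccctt

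The Ifit3 stretch is chr19:34583353-34583452 and the Ifit3b stretch chr19:34607749-34607848, both on the plus strand, and their 100 bases were identical. Their matches began 156 and 122 bases before the start in Ifit3 and 188 and 154 before it in Ifit3b, 34 bases apart in each. Ifit1 (chr19:34640765-34640864, plus strand) and Ifit1bl2 (chr19:34640744-34640833, minus strand) are read away from each other from starts 146 bases apart. Both their matches, 19 bases apart, were the same 2 genomic sites read from opposite strands, at 34640785 to 34640794 and 34640804 to 34640813. Ifit1bl1 (chr19:34601993-34602092, minus strand) had 1 match, 104 bases before the start, and its other listed start had 1 at 23 bases. Neither listed Ifit2 start had a match (the stretch shown is chr19:34550594-34550693, plus strand), which says only that these letters are not in those windows. Of the 31 other interferon-stimulated genes on a list given further on that had an entry, 15 (48.4%) had a match at a listed start, against 3.99% of all 27025 genes.

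**Figure D1:**
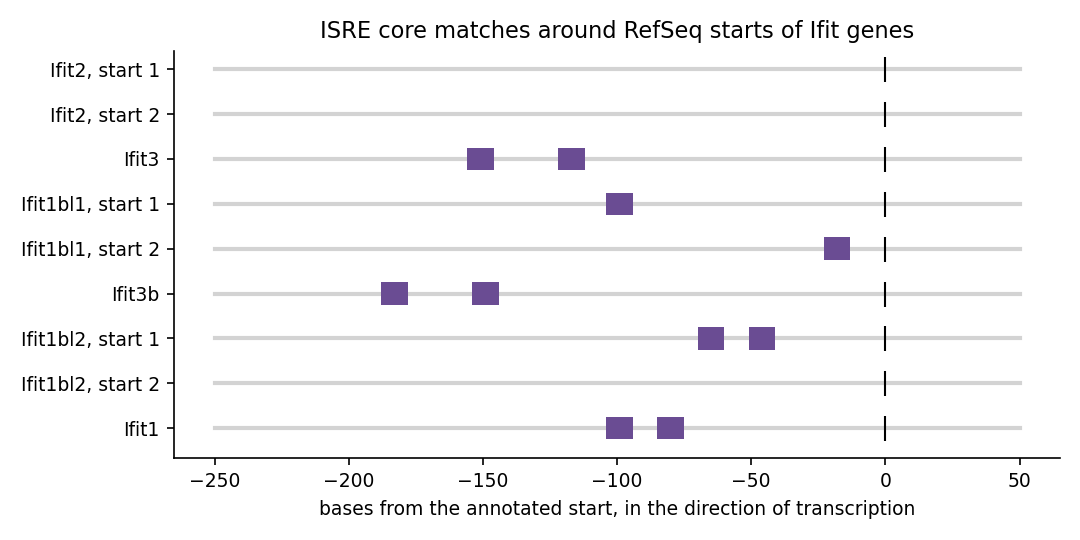
Matches to the ISRE core (purple boxes, 10 bases long) around the 9 RefSeq starts of the 6 Ifit genes, plotted as bases from the start (black tick) in the direction of transcription. Ifit3, Ifit3b, Ifit1 and Ifit1bl2 have a pair of matches upstream of a start, Ifit1bl1 has 1 at each start, and Ifit2 has none.

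All 6 members were lower in KD, and the family as a whole stood at 343.9 ± 10.3 FPKM in NC against 41.24 ± 5.59 FPKM in KD (summed over members, SD, n = 3 each), an 8.34-fold difference. In these bulk libraries fewer expressing cells and less RNA per cell cannot be told apart. In every member all KD libraries lay below all NC libraries, which was so for 22.9% of the 12299 genes tested. All 6 were called lower by limma with an adjusted p under 0.05, as were 13.6% of genes tested, and nothing is read from either count because the family was selected on this contrast. The members did not differ by the same amount. Ifit3, Ifit3b, Ifit1 and Ifit1bl2 kept between 6.242% and 9.372% of their NC level, while Ifit2 and Ifit1bl1 kept 46.43% and 40.88%.

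Ifit3, whose human counterpart binds and stabilises IFIT1, was the most abundant member in both groups. It had 175.0, 173.0 and 167.9 FPKM in NC1, NC2 and NC3 and 17.13, 14.57 and 15.69 FPKM in KD1, KD2 and KD3. The groups were far apart, with 4645 to 4905 reads per NC library and 421 to 553 per KD library. NC averaged 171.97 ± 3.623 FPKM against 15.793 ± 1.284 FPKM for KD (SD, n = 3), a 10.89-fold difference, and KD minus NC was -3.37 (SE 0.07) on the log2(FPKM + 1) scale. By the size of this difference Ifit3 ranked 9 among the 12299 genes tested, counted from the most negative.

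Ifit3b, which encodes a near-identical relative of IFIT3, had 43.70, 45.37 and 40.66 FPKM in the NC libraries and 3.135, 2.626 and 2.335 FPKM in the KD libraries. Its lowest NC value was above its highest KD value by more than any spread within a group. The means were 43.244 ± 2.385 and 2.6987 ± 0.4047 FPKM, a 16.02-fold difference, with a log2(FPKM + 1) difference of -3.58 (SE 0.09). It was the steepest fold difference in the family and ranked 6 among all genes tested on the log2 scale. The ratio of Ifit3b to Ifit3 was 0.242 to 0.262 in NC and 0.149 to 0.183 in KD.

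The Ifit3 and Ifit3b coding sequences were 99.1% identical, with 11 differing bases in 1209. The 90 coding bases where they differ most, positions 199 to 288 counted from the A of the start codon, are shown because a read placed here can be told apart only at the 4 differing positions, in capitals.
Ifit3: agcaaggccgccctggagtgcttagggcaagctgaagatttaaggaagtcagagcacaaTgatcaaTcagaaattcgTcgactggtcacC
Ifit3b: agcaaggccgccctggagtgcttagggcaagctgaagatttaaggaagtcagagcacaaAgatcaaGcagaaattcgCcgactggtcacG

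Of all stretches of 100 bases in the Ifit3 transcript 31.7% occurred unchanged in Ifit3b, and 27.4% of those of Ifit3b occurred in Ifit3. How reads that map to both copies were assigned was not given in the sources used here, so the division between the copies is uncertain and their sum is given as well. Ifit3 and Ifit3b together had 208.6 to 218.7 FPKM in NC and 17.19 to 20.26 FPKM in KD, an 11.6-fold difference of the means.

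Ifit1, the cap-sensing member, had 98.84, 99.48 and 92.62 FPKM in NC and 11.78, 8.661 and 6.811 FPKM in KD. All KD values were far below the NC values, with KD1 the highest and KD3 the lowest of the KD libraries. The NC mean of 96.98 ± 3.787 FPKM was 10.67-fold the KD mean of 9.085 ± 2.513 FPKM (SD, n = 3), and the log2(FPKM + 1) difference was -3.31 (SE 0.17). Ifit1 stood to Ifit3 in a ratio of 0.551 to 0.575 in NC and 0.434 to 0.688 in KD, so the NC range lay within the KD range.

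Ifit1bl2, an IFIT1B-like gene of the same locus and the divergent neighbour of Ifit1, was expressed at a few percent of Ifit1. It had 2.866, 2.392 and 2.211 FPKM in NC (155, 128 and 118 reads) and 0.3371, 0.1076 and 0.2283 FPKM in KD (21, 6 and 13 reads). The KD libraries were all low and rested on few reads. The ratio of the means was 11.1, while the log2(FPKM + 1) difference was -1.51 (SE 0.13), which understates the change of a gene this low. Voom, which models reads on a log2 scale, gave -3.53 on the recovered reads. The ratio of Ifit1bl2 to Ifit1 was 0.0239 to 0.0290 in NC and 0.0124 to 0.0335 in KD, again with the NC range inside the KD range. Of the 100-base stretches of Ifit1 3.29% occurred unchanged in Ifit1bl2, and 2.91% of those of Ifit1bl2 occurred in Ifit1 or Ifit1bl1. The division of reads between Ifit1 and Ifit1bl2 is therefore uncertain, and since Ifit1bl2 is so much lower, its level, fold and ratio could hold reads of Ifit1, which was not tested.

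Ifit2, which in other systems promotes cell death and restricts RNA viruses, showed a smaller difference. It had 26.79, 27.64 and 26.06 FPKM in NC and 13.68, 12.22 and 11.47 FPKM in KD. The groups did not overlap, and the spread within each was narrow. The means were 26.83 ± 0.7906 and 12.458 ± 1.123 FPKM, a 2.154-fold difference, with a log2(FPKM + 1) difference of -1.05 (SE 0.07). It rested on 5037 reads in NC and 2551 in KD, and no stretch of 100 bases of its transcript occurred in another gene.

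Ifit1bl1, the other IFIT1B-like gene, had 2.627, 2.074 and 2.468 FPKM in NC (96, 75 and 89 reads) and 1.568, 0.5838 and 0.7796 FPKM in KD (66, 22 and 30 reads). KD1 lay well above KD2 and KD3 but below all NC libraries. The means were 2.390 ± 0.2845 and 0.9771 ± 0.521 FPKM, a 2.446-fold difference. The log2(FPKM + 1) difference was -0.81 (SE 0.19), which understates the change of a gene this low, and voom on the recovered reads gave -1.37 (SE 0.31). It was no longer called by limma when NC1, NC2, NC3, KD2 or KD3 was left out or when all genes with a read were tested. Its coding sequence was 87.4% identical to that of Ifit1bl2 and 73.4% to that of Ifit1, but only 0.524% of its 100-base stretches occurred elsewhere.

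**Figure D2:**
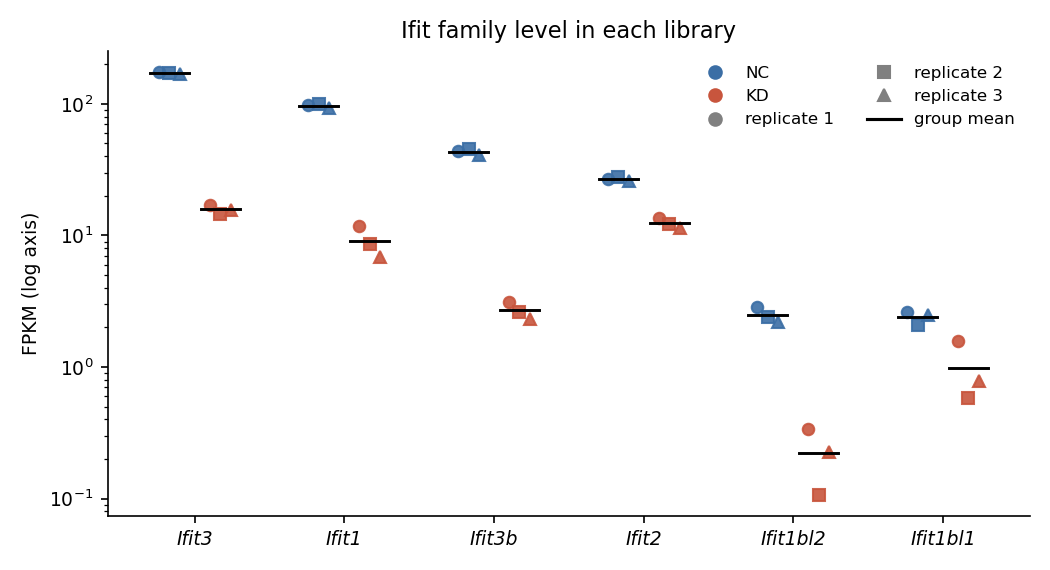
FPKM of the 6 Ifit genes in each library on a log axis, NC in blue and KD in red, with 1 symbol per replicate and a black bar at the group mean (n = 3). Every KD point lies below the NC points of its gene. The gap is smallest for Ifit2 (26.83 against 12.458 FPKM) and Ifit1bl1, and KD1 (circle) is the highest KD library in all 6.

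KD1 was the highest KD library for 6 of 6 members, for 31 of 39 other interferon-stimulated genes tested and for 42.3% of all genes tested. Mitochondrial genes took 2.558% of KD1 reads and 1.596% to 1.968% of those of each other library, and Calu was highest in KD1 among KD libraries (14.63 FPKM). The part of these in the Ifit values was not tested. Without KD1 the log2(FPKM + 1) differences were -3.42 for Ifit3, -3.67 for Ifit3b, -3.50 for Ifit1, -1.58 for Ifit1bl2, -1.12 for Ifit2 and -1.01 for Ifit1bl1, each further from 0 than with it.

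The make-up of the family differed between the groups as well as its level. As a share of summed Ifit FPKM, Ifit3 took 50.02% ± 0.58 in NC against 38.52% ± 3.15 for KD (SD, n = 3), and Ifit1 took 28.19% ± 0.27 and 21.78% ± 3.28. Ifit3b made up 12.57% ± 0.36 and 6.538% ± 0.261. The share of Ifit2 was 7.802% ± 0.127 in NC and 30.33% ± 1.45 in KD, with 28.72%, 31.53% and 30.75% in KD1, KD2 and KD3. Ifit1bl1 had 0.6958% and 2.296%, and Ifit1bl2 had 0.723% and 0.5323%.

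In NC the order by FPKM was Ifit3, Ifit1, Ifit3b, Ifit2, Ifit1bl2 and Ifit1bl1, and neighbours in that order did not overlap between libraries except the last pair. In KD the order was Ifit3, Ifit2, Ifit1, Ifit3b, Ifit1bl1 and Ifit1bl2, and Ifit2 and Ifit1 overlapped. The ratio of Ifit2 to Ifit3 was 0.153 to 0.160 in NC and 0.731 to 0.839 in KD. These are descriptions of the selected contrast and were not tested.

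**Figure D3:**
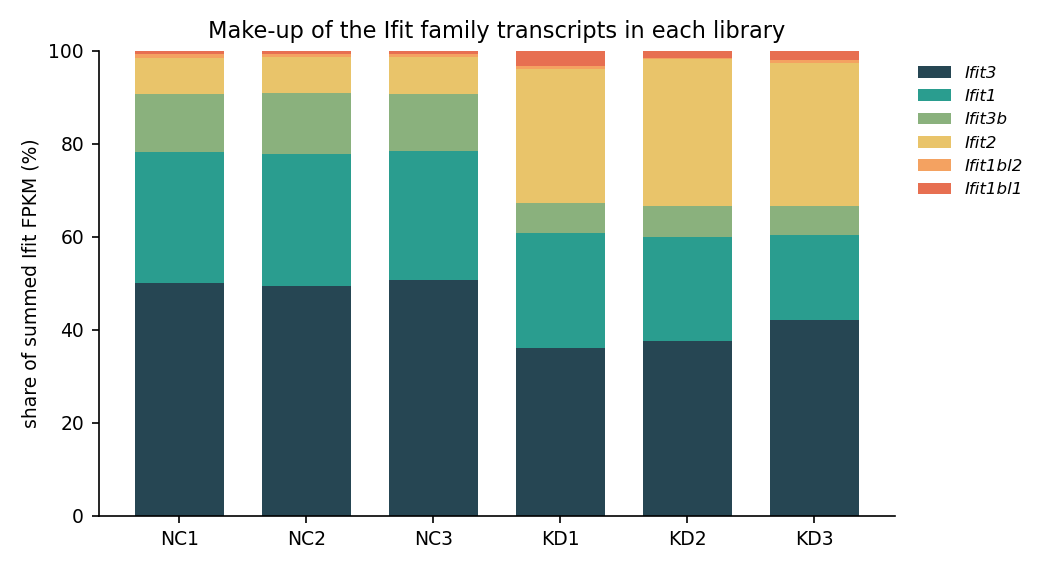
Share of each Ifit gene in the summed Ifit FPKM of a library, as stacked bars from 0 to 100%. The 3 NC bars are alike, with Ifit3 at 49.43% to 50.59%, and in the 3 KD bars Ifit2 takes 28.72% to 31.53%.

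RNA levels of interferon ligands, receptors and signalling genes do not show at which step of the pathway a difference arose, which was not tested. These genes were compared on lists chosen with earlier results of these data known. Their calls came from limma over the 12299 genes whose mean reached 1 FPKM, where 24.5% of genes were called, 13.6% lower and 10.9% higher, and the median log2(FPKM + 1) difference was 0.01. All 21 listed interferon genes were below 1 FPKM and were not tested. Ifnb1, the first interferon made by most infected fibroblasts, had 4, 7 and 7 reads in NC1, NC2 and NC3 and 0, 2 and 0 in KD1, KD2 and KD3. Ifna4, an early interferon alpha gene, had 5, 7 and 6 reads in NC and 1, 1 and 0 in KD. These counts are close to the detection limit of 3 reads. Ifna13 (7 and 10 reads over the 3 libraries), Ifne (4 and 3) and Ifnz (1 and 7) were also near 0, and the other 16, Ifng and the lambda genes among them, had 0 reads throughout.

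None of the 5 receptor chains tested was called, beside 24.5% of all genes tested. Ifnar1 measured 10.59 ± 0.03 FPKM in NC against 11.41 ± 0.35 for KD (SD, n = 3), a log2(FPKM + 1) difference of 0.10 (SE 0.05, limma adjusted p = 0.22). Ifnar2 had 6.75 ± 0.23 and 7.87 ± 1.22 FPKM (difference 0.19, adjusted p = 0.248), with KD2 and KD3 above all NC libraries and KD1 level with the lowest of them. Without KD1 it was called higher (difference 0.30, limma adjusted p = 0.00723, range over its alternatives 0.00723 to 0.557). The interferon gamma receptor chains Ifngr1 (8.43 and 7.90 FPKM) and Ifngr2 (16.16 and 14.13 FPKM) and Il10rb, shared by the interferon lambda receptor (2.57 and 2.72 FPKM), had adjusted p of 0.098 to 0.654. Ifnlr1 had 0 reads.

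Of 10 tested JAK, STAT and IRF genes 5 fell and 0 rose, with a list median of -0.36. The shares over all genes tested were 13.6% lower and 10.9% higher. Stat2, of the ISRE-binding complex, fell from 53.60 ± 0.28 to 18.73 ± 0.94 FPKM (SD, n = 3). Its log2(FPKM + 1) difference was -1.47 (SE 0.06, limma adjusted p = 2.31e-05). Irf9, the DNA-binding subunit, fell less, from 16.70 to 12.03 FPKM (difference -0.44, adjusted p = 0.00531). Irf7, the interferon-induced amplifier of interferon genes, fell from 99.98 ± 3.27 to 12.49 ± 0.96 FPKM (difference -2.91, SE 0.07, adjusted p = 3.31e-06). Unlike in the Ifit genes, KD1 was the lowest KD library for Irf7, with 11.41 FPKM against 12.86 and 13.21. Irf1, an early interferon gamma target, fell from 11.79 to 8.34 FPKM (-0.45, adjusted p = 0.00438).

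None of the kinases was called by limma on log2(FPKM + 1) with equal weights and all 6 libraries. Jak1 had 39.51 and 37.84 FPKM (limma adjusted p = 0.504), Tyk2 4.75 and 6.18 (0.0667) and Jak2 12.80 and 10.40 (0.0708). Irf3, which acts before interferon is made, had 7.105 ± 0.292 and 9.427 ± 1.98 FPKM (adjusted p = 0.12), and Irf2, which can repress interferon-induced transcription, 5.539 and 5.345 FPKM (0.765). Without KD1, Tyk2 (difference 0.42, adjusted p = 0.00337) and Irf3 (0.51, 0.00225) were called higher and Jak2 lower (-0.34, 0.0235), while over their alternatives the adjusted p reached 0.199, 0.289 and 0.21. With all 6 libraries Tyk2 was also called with array weights (0.0346) and voom (0.0433), Irf3 with array weights (0.0341) and Jak2 with voom (0.0488). Irf5 and Irf8 were below 1 FPKM.

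Of 6 feedback regulators tested 3 fell and 0 rose, beside 13.6% of all genes tested called lower and 10.9% called higher. Usp18, the interferon-induced protease that shuts down IFNAR2 signalling, had 67.81, 69.85 and 69.00 FPKM in NC and 14.74, 11.71 and 12.23 FPKM in KD, a difference of -2.34 (SE 0.09, limma adjusted p = 2.21e-05). Socs1, an inhibitor of JAK kinases, fell from 3.10 to 1.90 FPKM (-0.50, adjusted p = 0.014) and the SUMO ligase gene Pias4 from 11.40 to 7.70 FPKM (-0.52, adjusted p = 0.0191). Both calls were lost when single libraries were left out, Socs1 without NC2, NC3 or KD2 and Pias4 without NC1 or NC3, with adjusted p of 0.0561 to 0.0763, and also with array weights (Socs1) or no filter (Pias4). Socs3 (7.97 and 9.70 FPKM, adjusted p = 0.324), Ptpn2 (16.10 and 16.53, 0.78) and Pias1 (6.32 and 7.17, 0.314) were not called, though Socs3 was called higher without KD1 (difference 0.42, adjusted p = 0.00131, range over its alternatives 0.00131 to 0.638). Ptpn6 was below 1 FPKM.

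Among RNA sensors and adaptors, 4 sensor genes that are themselves interferon-induced fell, and Mavs, the adaptor of RIG-I and MDA5, was not called. Of 9 genes on this list 5 fell and 1 rose, beside 13.6% and 10.9% of all genes tested. Ifih1, which encodes MDA5, fell from 19.94 ± 0.89 to 4.28 ± 1.10 FPKM (SD, n = 3), a log2(FPKM + 1) difference of -2.01 (SE 0.14, limma adjusted p = 0.000243). The endosomal receptor Tlr3 fell from 10.79 to 2.47 FPKM (-1.77), the regulator Dhx58 from 36.57 to 10.05 FPKM (-1.77) and Ddx58, which encodes RIG-I, from 58.88 to 23.12 FPKM (-1.33). The adaptor Mavs had 14.40 and 15.54 FPKM (adjusted p = 0.319) and the kinase Tbk1, which IFIT3 is reported to bind, 21.78 and 21.00 FPKM (0.532). Tmem173, which encodes the DNA-sensing adaptor STING, had 6.01 and 7.84 FPKM and was just past the threshold (difference 0.34, limma adjusted p = 0.0481). It is named after its value was seen, as the 1 gene of the list that rose, and over the ligand, receptor, signalling, feedback and sensing lists together no gene rose when any of NC1, NC2, NC3, KD2 or KD3 was left out.

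The molecular counterparts of IFIT proteins are the cap that IFIT1 reads and the initiation factor eIF3 that IFIT1 and IFIT2 bind. Of 7 cap enzymes 3 rose and 0 fell, with a median of 0.32. Over all genes tested 10.9% were called higher and 13.6% lower. Cmtr2, which methylates the ribose of the second transcribed base, rose from 4.70 to 6.36 FPKM (difference 0.37, SE 0.07, limma adjusted p = 0.012). Pcif1, which adds a base methyl group next to the cap, rose from 11.44 to 15.64 FPKM (0.42, adjusted p = 0.0127), and Dxo, which removes faulty caps, from 7.02 to 9.19 FPKM (0.34, adjusted p = 0.0257). Cmtr1, whose methylation of the first base hides RNA from IFIT1, measured 1.185 ± 0.091 FPKM in NC against 0.9228 ± 0.277 for KD (adjusted p = 0.356). The 3 calls were lost without NC1, and 1 remained without NC3 or without KD2. Dxo also lost its call without NC2 (limma adjusted p = 0.0892) and with no filter (0.0577).

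Of 14 eIF3 subunits 3 fell and 0 rose, by small amounts, a count near the background of 13.6% of all genes tested called lower and 24.5% called in either direction, so it is not a result about eIF3. Eif3d, the subunit that can itself bind caps, fell from 33.73 to 25.95 FPKM (difference -0.37, limma adjusted p = 0.00976), Eif3i from 54.50 to 45.75 FPKM (-0.25, 0.0147) and Eif3l from 77.49 to 68.18 FPKM (-0.18, 0.0494). The median over the 14 was -0.12. The Eif3l call was lost in most alternatives, with adjusted p of up to 0.167. Counted together with the cap enzymes, lower calls numbered 5 without KD1, 0 without NC2 and 1 when KD2, NC3 or NC1 was left out.

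**Figure D4:**
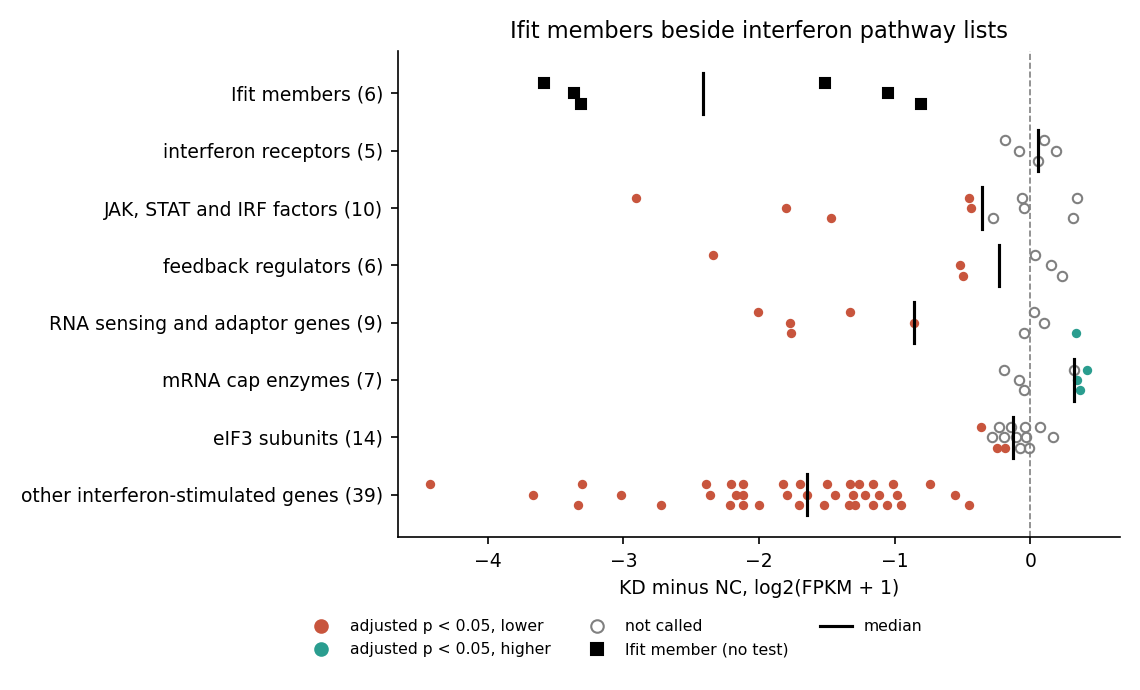
Difference KD minus NC on the log2(FPKM + 1) scale for the 6 Ifit genes (black squares, no test) and for the tested genes of 7 lists, the number of genes in brackets and a black line at each median. Red and green points passed an adjusted p of 0.05 in limma and open points did not. Receptors lie around 0, and the Ifit genes overlap the 39 other interferon-stimulated genes, from -4.42 to -0.45.

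Against the 39 tested genes of a list of other interferon-stimulated effectors, Ifit1, Ifit3 and Ifit3b lay among the larger differences. All 39 fell, beside 13.6% of all genes tested called lower. Their differences ran from -4.42 to -0.45 with a median of -1.65, and the median of the 6 Ifit genes was -2.41. This list was known to fall in these libraries and is no independent evidence. Only Rsad2, the gene of the antiviral enzyme viperin (117.4 and 4.73 FPKM, difference -4.42), and the nucleic acid sensor gene Zbp1 (31.05 and 1.53 FPKM, -3.67) had larger differences than Ifit3b. Ifi44l (27.24 and 1.81 FPKM, -3.33) and the guanylate-binding gene Gbp3 (48.63 and 4.10 FPKM, -3.30) were close to Ifit3 and Ifit1.

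Likeness to the family was measured as the root-mean-square distance over the 6 libraries between a gene's log2(FPKM + 1) profile, centred on its mean, and the mean profile of the 6 members. It was computed on this scale only, on which the differences of the low members Ifit1bl2 and Ifit1bl1 are understated, so the order holds for this scale. Of 10292 protein-coding genes Usp18 was nearest (0.06), followed by Parp12 (0.08), Igtp (0.08), Phf11d (0.09), Sp110 (0.09), Oasl2 (0.09), Sp100 (0.10), Ddx60 (0.11), Csprs (0.12) and Parp11 (0.13). Their KD minus NC differences ran from -2.39 to -2.03. Sp100 had 40.38, 42.24 and 40.26 FPKM in NC and 10.51, 8.094 and 8.223 in KD. Sp110 had 9.667, 9.650 and 8.904 FPKM in NC and 1.339, 0.7212 and 0.9851 in KD. Both had KD1 highest of the KD libraries. The mean profile they were picked to match has this too, so it is no separate likeness. No single member was this close to the family mean. The members' own distances from it ran from 0.39 for Ifit1bl2 to 0.74 for Ifit1bl1, because the mean falls between the larger and the smaller differences.

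Genes beside the cluster did not share the differences of Ifit1, Ifit3 and Ifit3b. Of 20 other genes within 500 kb, 5 reached a mean of 1 FPKM, 2 fell and 0 rose. Over all genes tested 13.6% were called lower and 10.9% higher, and 5 genes are too few to read a result about the locus. Lipa, the lysosomal acid lipase gene 23.22 kb from Ifit2, had 60.30, 57.45 and 56.53 FPKM in NC and 41.72, 34.67 and 34.90 FPKM in KD, a log2(FPKM + 1) difference of -0.64 (SE 0.08, limma adjusted p = 0.00302). Stambpl1, a deubiquitinase gene further out on the same side, fell from 6.934 to 4.499 FPKM (-0.53, adjusted p = 0.00442). Both differences were smaller than that of any Ifit gene on this scale with all libraries. The nearest, Ifit1bl1 at -0.81 (SE 0.19), became -0.31 with a pseudocount of 5 and -0.66 without KD2. It became -1.31 with a pseudocount of 0.1, -1.37 with voom and -1.01 without KD1. A pseudocount acts more on a gene this low than on Lipa, whose values under these settings are not given here. Whether Ifit1bl1 is separate from Lipa was not tested.

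On the other side, Pank1, which encodes a pantothenate kinase, had 2.783 and 3.003 FPKM (limma adjusted p = 0.521), and the kinesin gene Kif20b had 15.14 and 15.41 FPKM (0.927). The remaining tested gene was the microRNA gene Mir1950, with 2 to 9 reads per library. Slc16a12, next to Ifit1, and Ch25h, an interferon-inducible gene in many cells that lies beyond Lipa, were at or near 0, with 0 reads of Ch25h in all 6 libraries. Lipn, Lipm, Ankrd22, Acta2 and Fas were below 1 FPKM.

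**Figure D5:**
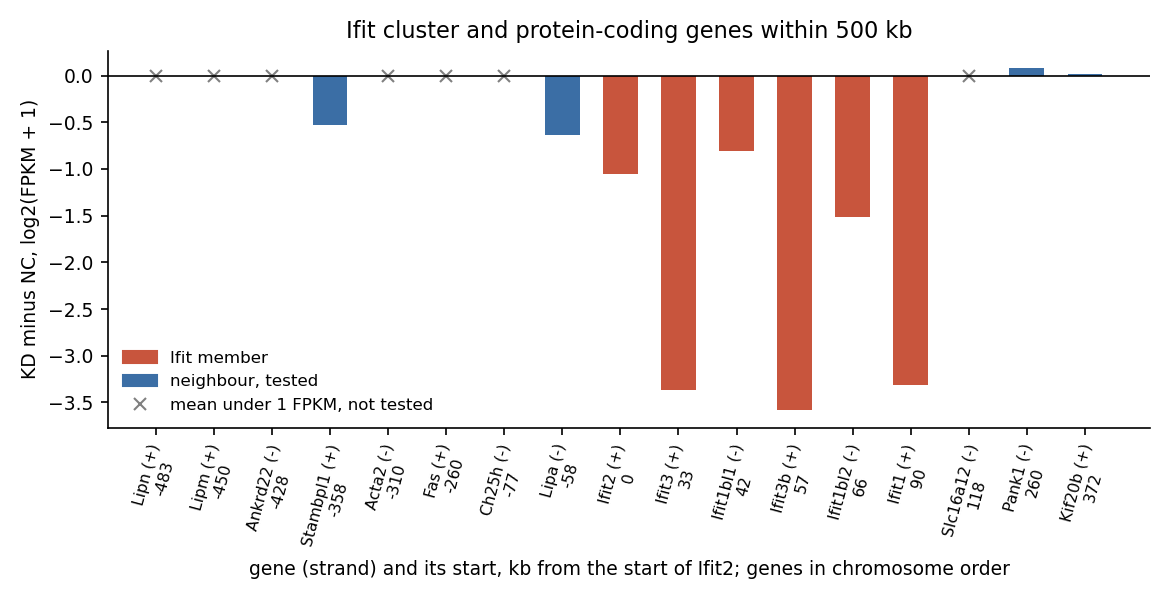
Difference KD minus NC on the log2(FPKM + 1) scale for the Ifit genes (red) and the protein-coding genes within 500 kb (blue), in chromosome order, with strand and the distance of each gene's lower coordinate from that of Ifit2 in kb. Crosses mark genes under 1 FPKM that were not tested. Lipa (-0.64) and Stambpl1 (-0.53) are lower in KD, and Pank1 and Kif20b are close to 0.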

How the data were processed

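Total RNA of 6 libraries, 3 NC and 3 KD by their titles, was read from both fragment ends, with alignment by HISAT2 2.0.5, per the labels' protocols, to mm10, per the submitters' processing notes. The authors deposited FPKM per gene and library. Counting tool, strand setting, annotation release and handling of multiply mapped reads were not given in the sources used here. Without the strand setting, antisense reads cannot be told apart. FPKM times the deposited gene length gave whole multiples of 1 step per library for 100% of values within 0.01, from which reads were recovered. Detection limits (3 reads) cover counting error only.

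Differences and calls came from limma 3.58.1 (R 4.3.3) on log2(FPKM + 1), group only, empirical Bayes with trend, with p-values adjusted by Benjamini-Hochberg over genes averaging 1 FPKM or more and called at 0.05; the pseudocount understates changes of low genes. Alternatives were pseudocounts of 0.1 and 5, no filter or 5 FPKM, other scalings (equal totals, median of ratios, quantile), robust moderation, no trend, voom on recovered reads, array weights, a replicate block, and each library left out. Named genes were all members, the ligand, receptor, JAK/STAT/IRF and feedback lists, up to 4 called genes with the largest difference from each other list (the 2 most abundant where none was called), protein-coding genes within 500 kb, and the 10 nearest profiles; Trim25 also fell but ranked below the 4. The values of 1 listed gene are not reported here. Of 154 list and marker genes 154 were found, 1 of them through a RefSeq synonym. Members, lists and rules were chosen with earlier results of these data known. The code was tested on simulated data.

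Starts, promoters and names came from RefSeq (GRCm38.p6). Transcripts and coding sequences came from GENCODE M21, whose coordinates matched the deposited ones for all members except Ifit1bl1. Coding sequences were aligned globally with Biopython 1.88, and shared 100-base stretches were sought on both strands of all GENCODE transcripts. Other software was pandas 2.3.3 and matplotlib 3.10.9 under Python 3.11.15.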

Additional observations from a re-analysis of the deposited data

How the results depend on the processing

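The median log2 difference of the 6 Ifit genes, a description of the contrast they were chosen on, was -2.41 and became -3.25 with a pseudocount of 0.1, -1.76 with 5, -3.34 with a filter of 5 FPKM, which leaves 4 members, and -3.44 with voom on recovered reads. Counts over all genes depended on single libraries: leaving out 1 library gave 588 to 2571 genes higher and 898 to 2658 lower, against 1344 and 1672, with the highest counts without KD1. Among ligand, receptor, signalling, feedback and sensing genes, 1 was higher with all libraries, 0 with no filter, no trend or a replicate block, 2 with array weights or voom, and 0 to 5 with 1 library left out. Cap enzyme and eIF3 genes numbered 0 to 4 higher and 0 to 5 lower with 1 library left out, and 1 lower with quantile scaling. The cause was not tested. With the replicate block 1050 genes were higher and 1383 lower. Same-numbered libraries deviated together by r of 0.0791, -0.0434 and 0.154, and differently numbered ones by -0.158 to 0.0816. Deviations were taken within groups of 3 libraries, so these r values cannot decide whether the samples were paired. Of the 48 tested genes named by the stated rule, 8 lost a call in 35 of their results under alternatives, 5 gained one in 9, and none changed direction while called. Tmem173, named outside that rule, is not among the 48, and its call was lost with no filter, no trend or a replicate block. Ifit1bl2 and Ifit1bl1 rest on 40 and 118 KD reads, which limits their precision.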
